A study of Mus musculus with 14 samples.

Results

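Immediate early genes were described in mouse liver across a steatohepatitis diet and 2 lipid treatments. The 10 genes were chosen by symbol in the count table: the AP-1 subunit genes Fos, Fosb, Jun, Junb and Jund, the zinc finger factor gene Egr1, the response genes Ier2 and Ier3, the phosphatase gene Dusp1, and Myc. They are 10 of the 45706 genes in that table and 10 of the 15674 genes that passed the filter on low counts, so no member was lost to it. Liver RNA was sequenced in 14 libraries from male C57BL6/J mice that were 8 weeks old at entry. The chow group (4 libraries) was fed a standard chow diet for 16 weeks, and how it was fed after that time is not stated. The MASH group (3 libraries, replicates 2, 3 and 4) was fed the MASH diet, a model diet for metabolic dysfunction-associated steatohepatitis, in which the fatty liver is inflamed and scarred. The C18:1 group (4 libraries) received the same diet and the monounsaturated fatty acid C18:1, called OA in the titles. The C18:1-leucine group (3 libraries, replicates 1, 2 and 4) received the diet and C18:1 joined to the amino acid leucine, called OAL in the titles. The diet ran for 16 weeks and went on for 6 more weeks of treatment. Doses are not given, the titles do not say whether the MASH group received vehicle, and no label states that replicates are different mice. The p-values thus speak only for the spread from library to library, which may be technical.

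Immediate early genes are switched on within minutes of a growth factor, cytokine or stress signal, without new protein synthesis, and their mRNAs are short-lived. MAP kinases, serum response factor with its ternary complex partners, and CREB drive many of them. FOS and JUN proteins pair as the transcription factor AP-1, EGR1 binds GC-rich sites, and DUSP1 closes the loop by removing phosphate from MAP kinases. In liver these genes are known for their burst after partial removal of the organ, after injury and after handling, and the mRNA of a whole liver mixes hepatocytes with macrophages, stellate and endothelial cells.

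Upstream stretches of 5 members are shown because they hold the motifs found in the members whose levels are compared later. RefSeq start sites on GRCm38.p6 gave a 300-base window (250 bases before the start and 50 after) for 7 of the 10 members. Each printed stretch has 150 bases upstream of the RefSeq start that no annotated exon covers, written 5′ to 3′ on the gene's strand; the annotated Dusp1 gene also has a start farther upstream, so its stretch lies within that gene's span. Capitals mark the CRE site TGACGTCA and its core TGACG, the EGR site GCGGGGGCG and the kappa B site.
Fos, chr12:85473740-85473889, plus strand: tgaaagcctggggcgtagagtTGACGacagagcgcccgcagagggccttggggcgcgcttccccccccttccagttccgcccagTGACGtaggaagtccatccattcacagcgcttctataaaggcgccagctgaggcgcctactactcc
Junb, chr8:84978749-84978898, minus strand: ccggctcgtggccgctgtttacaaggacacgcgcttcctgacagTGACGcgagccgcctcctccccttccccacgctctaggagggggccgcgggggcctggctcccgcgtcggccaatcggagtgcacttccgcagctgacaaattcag
Dusp1, chr17:26508520-26508669, minus strand: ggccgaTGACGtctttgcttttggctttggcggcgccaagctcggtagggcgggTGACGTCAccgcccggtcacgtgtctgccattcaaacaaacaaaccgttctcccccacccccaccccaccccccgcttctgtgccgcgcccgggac
Fosb, chr7:19310052-19310201, minus strand: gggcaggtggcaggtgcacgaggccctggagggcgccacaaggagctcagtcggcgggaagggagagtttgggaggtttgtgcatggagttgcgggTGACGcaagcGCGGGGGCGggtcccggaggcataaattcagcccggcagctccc
Ier3, chr17:35821534-35821683, plus strand: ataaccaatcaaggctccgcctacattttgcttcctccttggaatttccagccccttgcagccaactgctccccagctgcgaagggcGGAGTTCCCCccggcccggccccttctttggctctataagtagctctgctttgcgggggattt

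The CRE core TGACG, searched on both strands and also counted inside the full CRE, lay in the windows of Fos, Junb, Dusp1 and Fosb. It lay in 20.8% of the 32817 RefSeq windows of that length. The full CRE TGACGTCA was found in the Dusp1 window and in 1.79% of all windows, and the EGR site GCGGGGGCG in the Fosb window and in 2.91% of all windows. The kappa B site, the NF-kappa B motif, was found in the windows of Fos, Fosb and Ier3 and in 8.46% of all windows; those of Fos and Fosb lie outside the printed bases. The letters of the AP-1 site TGACTCA (in 1708 of the 32817 windows) and of the CArG box bound by serum response factor (1.63%) were in none of the 7 windows. These are descriptions of letters and do not show binding. Bases farther than 250 before the start, and members without a window, were not searched, so motifs there are not covered.

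All levels are CPM, a gene's share of its TMM-scaled library in the usual unit of that name, with the SD over the libraries of a group. Library totals ran from 33821874 to 51107248 counts, and counting error limited only the scarce members: Fosb had 9 to 240 counts in a library, Ier3 21 to 187, and every library had 98 or more counts of each other member. A gene is called changed where the edgeR quasi-likelihood test, adjusted by Benjamini and Hochberg over all 15674 tested genes, gave an adjusted p under 0.05. For 2 libraries, C18:1 replicate 1 and C18:1-leucine replicate 1, title and treatment tag name different groups. Groups follow the title. Some calls and counts of called genes are also given with groups from the tags or without both libraries. Correlations, library ranks, spreads within groups and counts of genes without overlap are given only with all 14 libraries and groups from the titles. In whole liver, a change in the number of cells of a type and a change in RNA per cell cannot be told apart. Levels of different genes were compared per kilobase of annotated exon. On that scale Jund was the most abundant member in every group, with means of 58.0 CPM per kilobase in chow, 72.3 in MASH, 81.7 in C18:1 and 61.9 in C18:1-leucine. Fosb was the scarcest in every group, between 0.0778 and 0.429 CPM per kilobase.

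**Figure D1:**
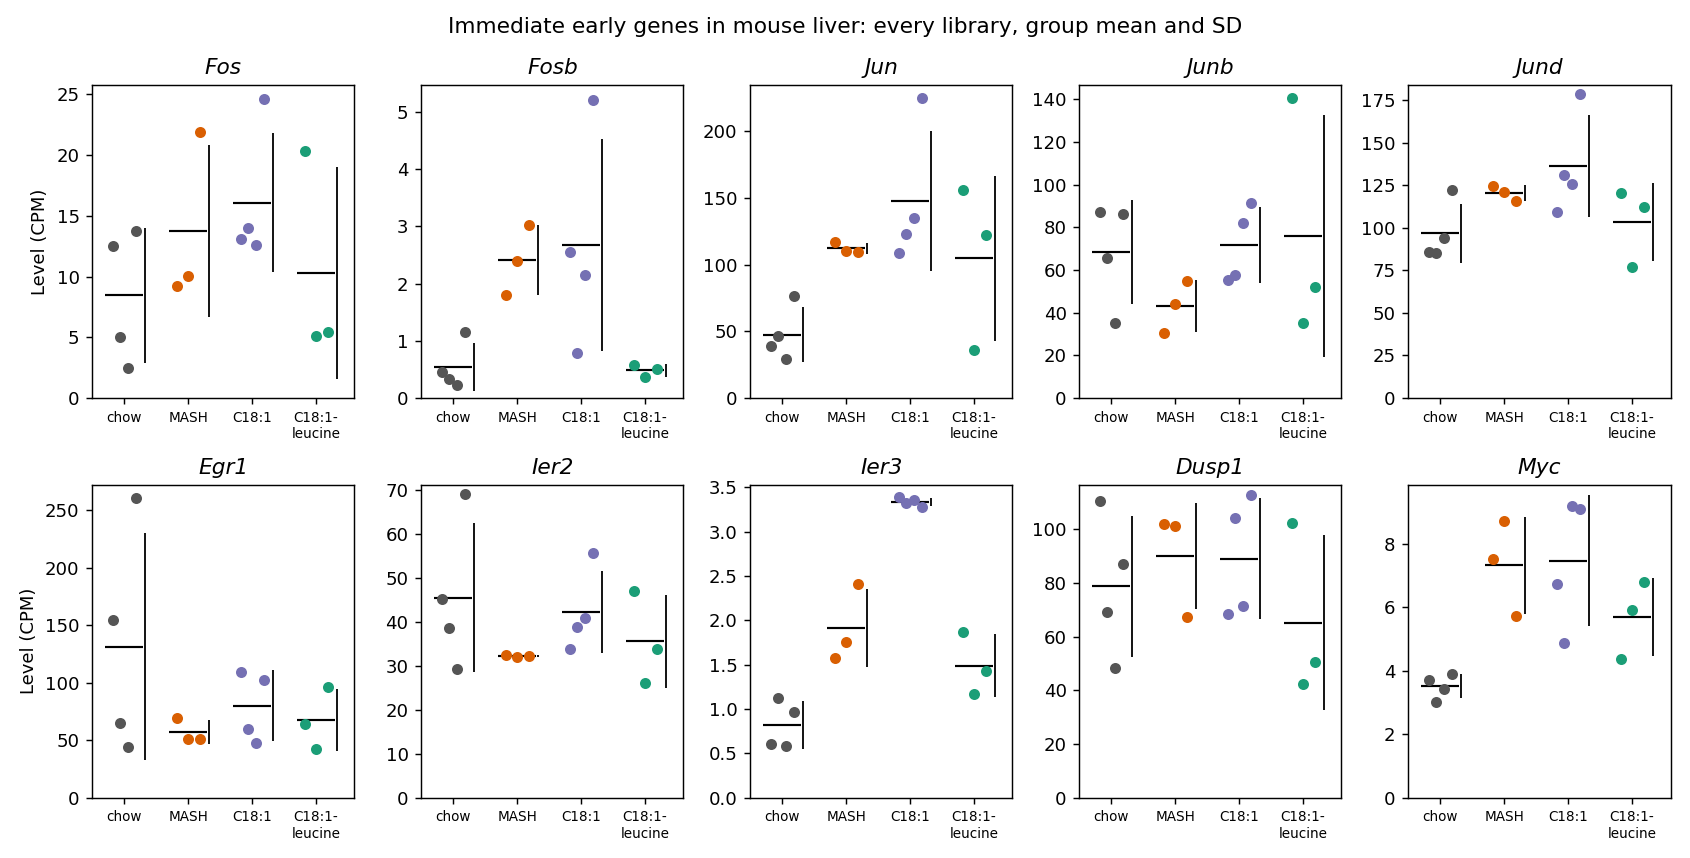
Level of each member in CPM (vertical axis, linear, from 0) by group (horizontal axis). Each point is 1 library, the horizontal line is the group mean and the vertical bar is the SD. Fosb, Jun, Ier3 and Myc lie higher in every MASH library than in every chow library, and the Ier3 libraries of the C18:1 group, as given by the titles, lie close together.

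FOS proteins supply the DNA-binding partner that JUN needs for stable AP-1. Fos (chromosome 12, bases 85473890 to 85477273 of GRCm38, plus strand, 4 exons) stood at 12.5, 5.01, 2.47 and 13.8 CPM in chow replicates 1 to 4. Its MASH libraries held 9.26, 10.1 and 21.9 CPM, its C18:1 libraries 13.1, 13.98, 12.6 and 24.6 CPM, and its C18:1-leucine libraries 20.3, 5.08 and 5.41 CPM. Chow replicate 3 was lowest and C18:1 replicate 4 highest of the 14, and the groups of all 6 comparisons overlapped. Fos was not called in any comparison; its log2 change from chow to MASH was 0.71 with a 95% interval from -0.62 to 2.03.

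Fosb (chromosome 7, 19302696 to 19310051, minus strand, 4 exons), a FOS paralog whose products include a long-lived splice form, followed the diet and treatment groups more closely. The chow libraries held 0.460, 0.326, 0.227 and 1.15 CPM and the MASH libraries 1.80, 2.40 and 3.03 CPM, without overlap. The C18:1 libraries were spread widely at 2.55, 0.796, 2.16 and 5.22 CPM. All 3 C18:1-leucine libraries were low, at 0.580, 0.363 and 0.514 CPM, below every MASH and every C18:1 library and inside the chow range. The rise from chow to MASH was 4.48-fold (log2 change 2.16 ± 0.57 SE, edgeR adjusted p = 0.0108). C18:1-leucine against C18:1 gave a log2 change of -2.45 ± 0.60 SE (edgeR adjusted p = 0.0179), a level 5.48-fold lower. Against MASH the C18:1-leucine libraries were 4.91-fold lower at a log2 change of -2.30 ± 0.62 SE, which missed the threshold (edgeR adjusted p = 0.102). That value passed with DESeq2 (adjusted p = 0.00785) and with those groups fitted alone (edgeR adjusted p = 0.0471).

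JUN proteins can pair with each other or with FOS. Jun (chromosome 4, 95049034 to 95052222, minus strand, 1 exon) held 38.8, 46.5, 29.1 and 76.1 CPM in chow, and 117, 110 and 110 CPM in MASH (SD 3.97). The C18:1 libraries reached 109, 123, 135 and 225 CPM. C18:1-leucine replicate 2 stood at 36.0 CPM, inside the chow range, whereas the other libraries of its group held 156 and 122 CPM. Jun was higher in MASH than in chow by 2.36-fold (log2 change 1.24 ± 0.43 SE, edgeR adjusted p = 0.0409). This call sits near the threshold: the change lay between 1.06 and 1.55 over the 22 alternatives, and the call was lost without chow replicate 3 (edgeR adjusted p = 0.0979) and likewise without chow replicate 1 or 2, any 1 of the 3 MASH libraries, C18:1 replicate 3 or C18:1-leucine replicate 4, with limma voom and with no filter on low counts.

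Junb (chromosome 8, 84974484 to 84978718, minus strand), often a weaker activator than Jun, did not share that rise. Its mean was 68.5 ± 24.5 CPM in chow and 43.1 ± 12.3 in MASH, then 71.6 ± 17.9 with C18:1 and 75.9 ± 56.8 with C18:1-leucine. C18:1-leucine replicate 1 held 141 CPM, the highest of the 14, beside 35.0 and 52.1 CPM in the other libraries of its group. The MASH libraries, at 30.4, 43.9 and 55.0 CPM, lay below every C18:1 library, but no comparison of Junb was called. Junb shares 351 bases with Prdx2 on the opposite strand, and the use of strand in counting is not given, so reads of the pair may not be told apart.

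Jund (chromosome 8, 70698949 to 70700616, plus strand, 1 exon) is known as the steadily expressed JUN gene. It had the narrowest spread within groups of the 10 members, with an SD of 0.26 on the log2 CPM scale where the median of all tested genes was 0.20. Its chow libraries held 85.5, 85.4, 93.9 and 122 CPM and its MASH libraries 125, 121 and 116 CPM. The C18:1 libraries held 109, 131, 126 and 179 CPM, and the C18:1-leucine libraries 120, 77.0 and 113 CPM. Chow replicate 4 reached into the ranges of MASH and C18:1. Jund was called higher in C18:1 than in chow (log2 change 0.49 ± 0.17 SE, edgeR adjusted p = 0.0254), a call lost without chow replicate 1, 2 or 3 or C18:1 replicate 4 (edgeR adjusted p up to 0.0892).

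Egr1 (chromosome 18, 34859823 to 34864984, plus strand, 3 exons) encodes a factor induced by serum, injury and feeding signals. Chow libraries ranged from 44.4 to 261 CPM, with 154, 65.4, 44.4 and 261 CPM in replicates 1 to 4. The MASH libraries held 69.0, 51.2 and 51.4 CPM, the C18:1 libraries 110, 59.8, 47.6 and 103 CPM, and the C18:1-leucine libraries 64.1, 42.6 and 96.5 CPM. The chow group thus contained both the highest library and a library below all of MASH. The log2 change from chow to MASH was -1.20 ± 0.54 SE (edgeR adjusted p = 0.102), and it was called only without chow replicate 3 (log2 change -1.48, edgeR adjusted p = 0.0368).

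Ier2 (chromosome 8, 84661331 to 84662852, minus strand, 1 exon), a small nuclear protein gene of the same response, gave nearly equal values in MASH: 32.4, 31.9 and 32.3 CPM. The chow libraries ran from 29.2 to 69.0 CPM, the C18:1 libraries from 33.9 to 55.7 and the C18:1-leucine libraries from 26.1 to 47.0. Ier2 was not called in any of the 6 comparisons. Dusp1 (chromosome 17, 26505590 to 26562128, minus strand, 4 exons) likewise changed in none. Its means were 78.8 ± 26.4 CPM in chow, 90.2 ± 19.8 in MASH, 89.2 ± 22.6 in C18:1 and 65.2 ± 32.6 in C18:1-leucine, where replicate 1 held 103 CPM and the others 42.5 and 50.6. Dusp1 shares 640 bases with Ergic1 on the opposite strand, with the same doubt as for Junb.

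Ier3 (chromosome 17, 35821684 to 35822923, plus strand, 2 exons), a survival gene of the NF-kappa B and stress response, gave the clearest order of groups. The chow libraries held 0.604, 1.13, 0.579 and 0.972 CPM, the MASH libraries 1.57, 1.76 and 2.42 CPM and the C18:1-leucine libraries 1.87, 1.17 and 1.43 CPM. The 4 C18:1 libraries held 3.39, 3.32, 3.36 and 3.28 CPM, above every library of the other groups when grouped by title. By the treatment tags, the library at 3.39 CPM would belong to MASH and that at 1.87 CPM to C18:1. The MASH and C18:1 ranges would then overlap and C18:1 would no longer be even. With groups from the titles, the order from high to low was C18:1, MASH, C18:1-leucine and chow. MASH and C18:1-leucine overlapped, with a log2 difference of -0.36 (95% interval -0.92 to 0.20). Against chow, Ier3 was 2.34-fold higher in MASH (log2 change 1.23 ± 0.25 SE, edgeR adjusted p = 0.00247), 4.08-fold higher in C18:1 (log2 change 2.03 ± 0.24 SE, edgeR adjusted p = 1.93e-05) and 1.82-fold higher in C18:1-leucine (log2 change 0.87 ± 0.25 SE, edgeR adjusted p = 0.0377). The last of these was lost in 8 of the 22 alternatives, among them the omission of chow replicate 1 or 3 or of C18:1-leucine replicate 1 or 4 (edgeR adjusted p up to 0.278 with groups from the tags). C18:1-leucine against C18:1 gave a log2 change of -1.16 ± 0.25 SE (edgeR adjusted p = 0.00974).

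Myc (chromosome 15, 61985391 to 61990374, plus strand, 3 exons), which drives ribosome and growth genes, was even in chow at 3.71, 3.02, 3.42 and 3.89 CPM. The MASH libraries held 7.52, 8.72 and 5.71 CPM and the C18:1 libraries 6.72, 4.89, 9.18 and 9.09 CPM. C18:1-leucine libraries held 4.38, 5.91 and 6.798 CPM, so every library on the MASH diet stood above every chow library. Myc was 2.08-fold higher in MASH than in chow (log2 change 1.06 ± 0.22 SE, edgeR adjusted p = 0.00296) and 2.13-fold higher in C18:1 than in chow (edgeR adjusted p = 0.000818). C18:1-leucine against chow gave a log2 change of 0.70 ± 0.22 SE, just short of a call (edgeR adjusted p = 0.0527), and 8 of the 22 alternatives called it.

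MASH against chow compares livers on the diet with livers on chow. The labels do not give the time of chow beyond 16 weeks, nor vehicle. Diet therefore cannot be told apart from any difference in age at collection, feeding time or vehicle. Fosb, Jun, Ier3 and Myc rose and no member fell. Those 4 of 10 members stand beside 35.5% of all tested genes called in either direction and 20.4% called higher, so a share of 40% in either direction is near the background. Groups did not overlap for the same number of members, 4 of 10, beside 40.3% of all tested genes. The members' median log2 change was 0.51, and that of all tested genes 0.01. The direction was not shared: Junb, Egr1 and Ier2 had negative values, none of them called. The calls of Fosb, Ier3 and Myc held in each of the 22 alternatives.

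C18:1 against MASH asks what the free fatty acid changed on the diet, and no member was called, where 0% of all tested genes were called by edgeR. At an unadjusted p under 0.05 edgeR gave 968 genes and 1 member, Ier3, which was 1.74-fold higher (log2 change 0.80, 95% interval 0.28 to 1.32, edgeR adjusted p = 0.770) without overlap between the groups. DESeq2 called 3 genes and limma voom 0, none of them a member. Junb, Ier2 and Ier3 did not overlap between the groups, 3 of 10 members beside 5.46% of all tested genes.

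C18:1-leucine against MASH called 0 of 10 members with edgeR, where 0.0702% of all tested genes were called (0.00638% higher and 0.0638% lower). DESeq2 called 961 genes and limma voom 601; among the members DESeq2 called Fosb and limma voom none, and at an unadjusted p under 0.05 edgeR gave 2836 genes and 1 member, Fosb. Groups did not overlap for Fosb alone of the members, beside 22.3% of all tested genes.

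C18:1-leucine against C18:1 compares the molecules that differ by the leucine, given for the same 6 weeks at doses that are not given. It is the only pair of compounds here. Fosb and Ier3 fell, 2 of 10 members beside 16.2% of all tested genes called (7.34% higher and 8.89% lower), and no member rose. Groups did not overlap for those 2 members, beside 27.7% of all tested genes. Values for 9 of 10 members were negative, and the members' median log2 change was -0.42, beside -0.02 for all tested genes. The other 8 were not shown to be alike: the 95% interval of the log2 difference ran from -1.98 to 0.70 for Fos, from -1.44 to 0.45 for Jun, from -0.80 to -0.01 for Jund (edgeR adjusted p = 0.151), from -1.17 to 0.27 for Dusp1 and from -0.87 to 0.08 for Myc. Those of Junb (-0.86 to 1.03), Egr1 (-1.38 to 0.90) and Ier2 (-0.81 to 0.32) reached over a 1.5-fold difference on at least 1 side.

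The calls of this comparison leaned on few libraries. Fosb lost its call without C18:1-leucine replicate 1 (edgeR adjusted p = 0.0536) or replicate 2 (edgeR adjusted p = 0.0823), at log2 changes of -2.60 and -2.29. Ier3 lost it without C18:1-leucine replicate 2 (log2 change -1.01, edgeR adjusted p = 0.0545). With groups taken from the treatment tags no member was called (edgeR adjusted p = 0.300 for Fosb and 0.248 for Ier3). Without both libraries of disagreeing labels Ier3 alone was called, and Fosb had a log2 change of -2.63 (edgeR adjusted p = 0.0940).

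C18:1 against chow called Fosb, Jun, Jund, Ier3 and Myc higher, 5 of 10 members beside 52.6% of all tested genes called and 27.8% called higher. Groups did not overlap for 3 of these members, Jun, Ier3 and Myc, beside 46.6% of all tested genes. C18:1-leucine against chow called Ier3 alone, 1 of 10 beside 14.5% of all tested genes (10.2% higher and 4.34% lower). Ier3 and Myc did not overlap there, 2 of 10 members beside 29.2% of all tested genes. Both comparisons share their chow libraries with each other and with MASH against chow. Fosb shows the contrast in plain values: its log2 change against chow was 2.32 ± 0.55 SE with C18:1 and -0.13 ± 0.63 SE with C18:1-leucine.

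**Figure D2:**
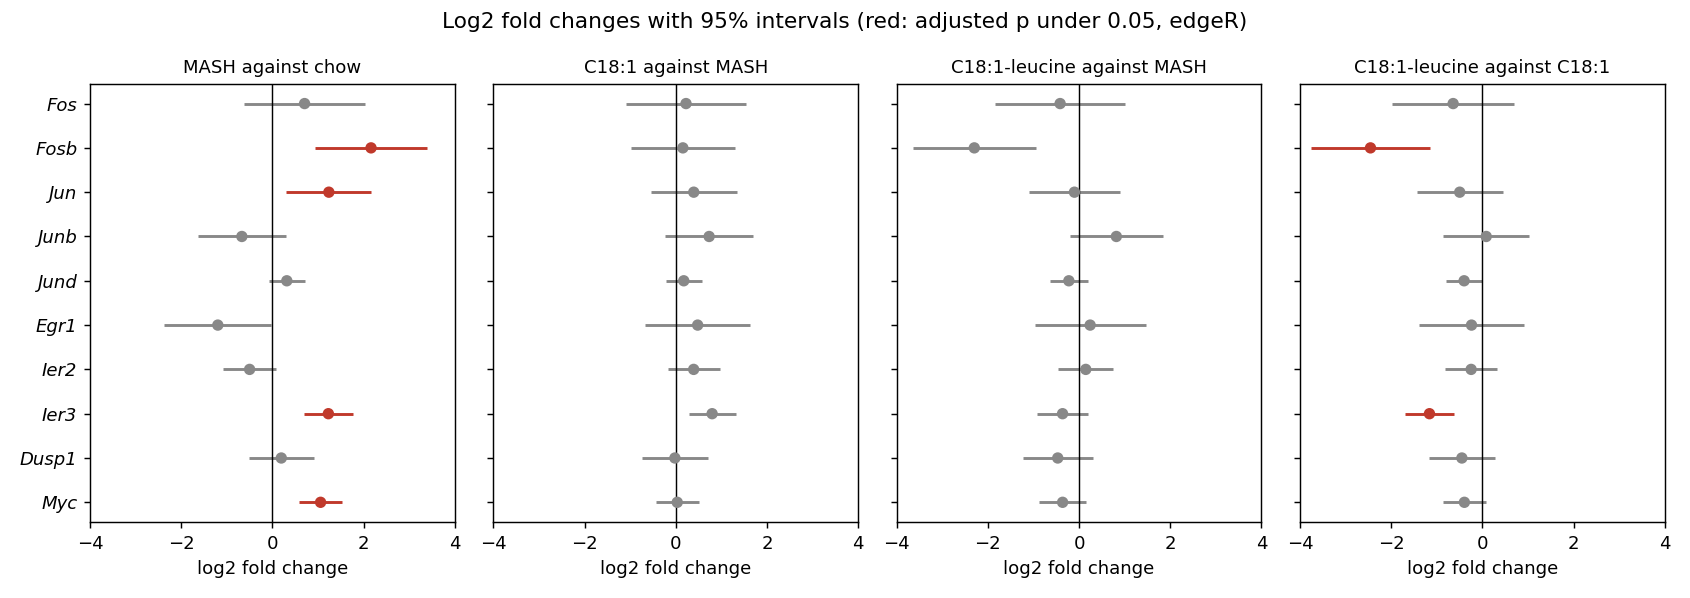
Log2 fold change of each member (horizontal axis) in 4 comparisons, with its 95% interval from edgeR; red marks an adjusted p under 0.05. Fosb and Ier3 are red in MASH against chow and, on the other side of 0, in C18:1-leucine against C18:1, while Fos, Junb, Jund, Egr1, Ier2 and Dusp1 are grey throughout.

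A second pattern ran across libraries of the same group. Fos, Fosb and Egr1 varied more within groups than 97%, 96% and 95% of tested genes, with SDs of 0.90, 0.81 and 0.77 on the log2 CPM scale; Myc, at 0.32, stood at the 68th percentile. C18:1 replicate 4 was the highest of the 14 libraries for 5 members and among the top 3 for 8. Chow replicate 4 was highest of its group for 7 members and chow replicate 3 lowest for 8. In the C18:1-leucine group replicate 1 was highest for 8 members and replicate 2 lowest for 9.

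**Figure D3:**
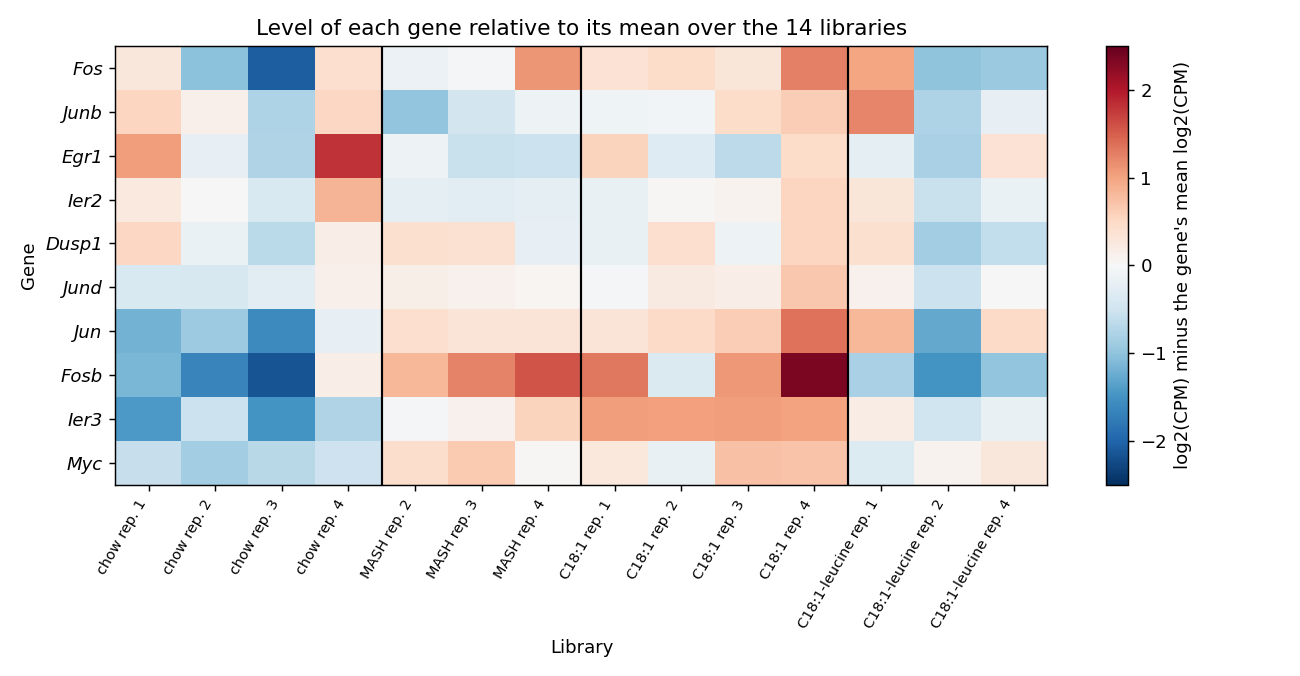
Each member (rows) in each library (columns, grouped by black lines), as log2 CPM minus the mean of that gene over the 14 libraries; red is above and blue below that mean. Chow replicate 3 and C18:1-leucine replicate 2 are blue for most members and C18:1 replicate 4 is red for most, beside their own groups.

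Deviations from the group means went together for most pairs. Over the 14 libraries, 41 of the 45 pairs of members had a positive Pearson r of these deviations, and 25 were over 0.5, with a median of 0.57. The highest were 0.89 for Fos and Junb, 0.88 for Jun and Jund, and 0.87 for Jun and Ier2. The 9 pairs with Ier2 had a median r of 0.74 and ran from 0.14 to 0.87. Myc stood apart: the median of its 9 pairs was 0.10, none was over 0.5, and that with Ier3 was -0.38. The 36 pairs without Myc were all positive, from 0.17 to 0.89. The 9 pairs with Ier3, that with Myc included, had a median r of 0.35, and 2 were over 0.5. These are descriptions over 14 points that share library, scaling and group means.

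**Figure D4:**
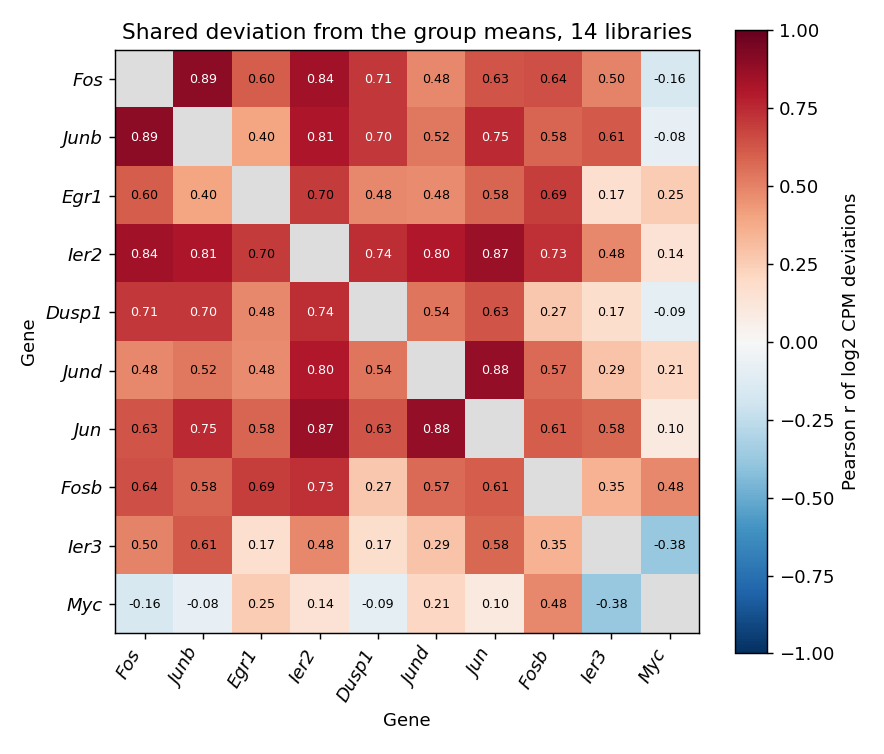
Pearson r of the deviations from group means of log2 CPM over 14 libraries for each pair of members (both axes list the genes; the color scale runs from -1 to 1). The block from Fos to Fosb is positive throughout, and the row of Myc holds the negative values along with positive ones up to 0.48.

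Some handling and cell markers differed between the same libraries. The summed level of 10 heat shock genes was 4458 CPM in chow replicate 1 and 1607 to 2541 CPM in the other 13 libraries. In C18:1-leucine replicate 1, the library with the highest Junb, 8 neutrophil markers summed to 58.2 CPM, against 3.57 to 26.96 CPM elsewhere. C18:1-leucine replicate 2, low for 9 members, held 956 CPM of 9 pancreatic acinar markers, and chow replicate 2 held 209 CPM, against at most 7.68 CPM in the other libraries. Summed glucocorticoid response genes ran from 8327 to 11864 CPM in chow, 2905 to 6318 in MASH, 2451 to 6273 in C18:1 and 4967 to 7986 in C18:1-leucine. In this sum Pck1 and Tat had the highest levels, up to 6237 and 3469 CPM in a library. Tat is also a hepatocyte marker and Per1 a clock gene of the sums below, so the sums overlap. Of the 14 genes, 2 rose (0 to 2 over the alternatives) and 6 fell (3 to 7) from chow to MASH. Of all tested genes, 20.4% were called higher and 15.1% lower there. The 17 clock genes summed to 810 to 1080 CPM in chow, 425 to 778 in MASH, 506 to 753 in C18:1 and 790 to 1030 in C18:1-leucine. The part of these in the members' levels was not tested. All 10 hepatocyte markers were detected, and their sum was 95468 to 120445 CPM in chow, 60771 to 70586 in MASH, 48445 to 62003 in C18:1 and 68506 to 93535 in C18:1-leucine.

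The genes whose level over the 14 libraries was most like each member's were named by Pearson r of log2 CPM. For Fosb they were Atf3 (0.91), a stress-induced AP-1 partner, Tmem65 (0.91) and the MAP kinase phosphatase gene Dusp10 (0.91). For Ier3 they were the calcium channel gene Itpr3 (0.97), Rhoh (0.96) and Alpk1 (0.96). Those reported for Myc are Mmp24os1 (0.95) and Chpf (0.95). Fos was most like Btg2 (0.85), Jun like Gmfg (0.90), Jund like the histone gene H3f3b (0.89), Dusp1 like P3h1 (0.91), Junb like Eef2k (0.79), Ier2 like Midn (0.78) and Egr1 like Hnrnpc (0.77). With the group means removed, r was 0.85 for Fosb and Atf3, 0.85 for Ier3 and Itpr3, and 0.91 for Egr1 and Hnrnpc.

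Genes around the members in the pathway were read from lists of ligands, receptors, kinases, partners, inhibitors and targets. From chow to MASH 20.4% of all tested genes were called higher and 15.1% lower, and the counts of each list stand beside those shares. Of 15 tested growth factor and cytokine ligands, 8 rose and 0 fell from chow to MASH, with a median log2 change of 1.00. Btc, an EGF receptor ligand, went from 1.44 ± 0.337 to 5.07 ± 1.48 CPM (edgeR adjusted p = 0.000237). Receptors went both ways near those shares: 3 of 17 rose and 4 fell (1 fell without MASH replicate 2 or 4), with Pdgfrb, a receptor of stellate cells, at a log2 change of 1.81 and the interleukin 6 receptor gene Il6ra at -1.11. Of 26 kinases and serum response regulators, 5 rose and 4 fell (2 fell without MASH replicate 4), their median at -0.08, also near the shares of all tested genes.

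Among 14 other AP-1 and partner genes, 6 rose and 3 fell in MASH (1 fell without MASH replicate 4). Atf3 went from 3.18 ± 2.63 to 16.7 ± 3.04 CPM, a log2 change of 2.40 ± 0.54 SE (edgeR adjusted p = 0.00498), and Batf2 from 0.311 ± 0.0512 to 1.02 ± 0.0988 CPM. Of 34 tested other immediate early genes, 13 rose and 1 fell, with a median log2 change of 0.24; 3 fell without MASH replicate 3, and 2 without chow replicate 2, C18:1 replicate 1 or C18:1-leucine replicate 1. The zinc finger factor gene Klf6 went from 12.1 ± 2.51 to 44.3 ± 6.05 CPM (edgeR adjusted p = 0.000186), Ier5 had a log2 change of 1.45 and the NF-kappa B inhibitor gene Tnfaip3 one of 1.65. Of 16 phosphatases and ERK feedback inhibitors, 4 rose and 0 fell, the rises near the 20.4% of all tested genes called higher. Without MASH replicate 3, 2 fell, and 1 fell without C18:1 replicate 4 or C18:1-leucine replicate 2 or 4. Dusp2 and Dusp10 were among the 4 that rose, at log2 changes of 1.83 and 1.05, whereas Dusp1 itself was not called.

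Of 14 genes known as AP-1 targets, 10 rose and 1 fell in MASH, with a median log2 change of 1.82. The urokinase receptor gene Plaur went from 0.469 ± 0.174 to 3.03 ± 0.337 CPM, and the collagenase gene Mmp13 from 0.144 ± 0.0681 to 6.64 ± 1.17 CPM. Genes known as MYC targets were read beside Myc: 1 of 18 rose (2 without chow replicate 1) and 4 fell (2 without MASH replicate 4), with a median of -0.12. The falls were near the 15.1% of all tested genes called lower, and the 1 rise was below the 20.4% called higher. The nucleolar genes Npm1 and Ncl had log2 changes of -0.33 and -0.31 and the cyclin gene Ccnd2 one of 0.79, each called. Of 10 MYC partners, 0 rose and 1 fell.

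From C18:1 to C18:1-leucine, 3 of 14 other AP-1 genes, 6 of 34 immediate early genes, 3 of 16 phosphatases and 3 of 15 ligands fell. None of these lists held a rise, and 8.89% of all tested genes were called lower and 7.34% higher. Kinases, receptors, MYC partners and MYC targets were near or below those shares. Of 26 kinases and serum response regulators 2 fell (0 to 6 over the alternatives) and 0 rose. Of 17 receptors 1 fell (0 to 3) and 0 rose, and of 10 MYC partners 0 fell (0 to 2) and 0 rose. Of 18 MYC targets 1 rose (0 to 3) and 1 fell (0 to 2). Atf3 had a log2 change of -1.82 (edgeR adjusted p = 0.0399), Ier5 of -1.03, Tnfaip3 of -1.14 and Klf6 of -0.99. Of the 14 AP-1 targets 7 fell and 1 rose, with a median of -0.98; Mmp13 went from 7.15 ± 2.72 to 1.09 ± 0.435 CPM (edgeR adjusted p = 0.00304). The 1 rise among the AP-1 targets was lost without C18:1 replicate 1 or 4 and without C18:1-leucine replicate 1 or 2. It was also lost with the compared groups only, with groups from the tags and without both libraries of disagreeing labels. With groups from the tags, 0 genes of these lists fell. Without both libraries of disagreeing labels, 1 AP-1 gene, 1 immediate early gene and 4 AP-1 targets fell, and no phosphatase or ligand. The count of 6 immediate early genes became 2 without C18:1 replicate 1 or 4 or without C18:1-leucine replicate 1 or 2. The ligand count became 1 without C18:1 replicate 4 or C18:1-leucine replicate 1, 0 without C18:1-leucine replicate 2 and 5 without C18:1 replicate 2, with 1 ligand rising without chow replicate 1, and the phosphatase count 1 without C18:1 replicate 1 or 4 or C18:1-leucine replicate 2.

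**Figure D5:**
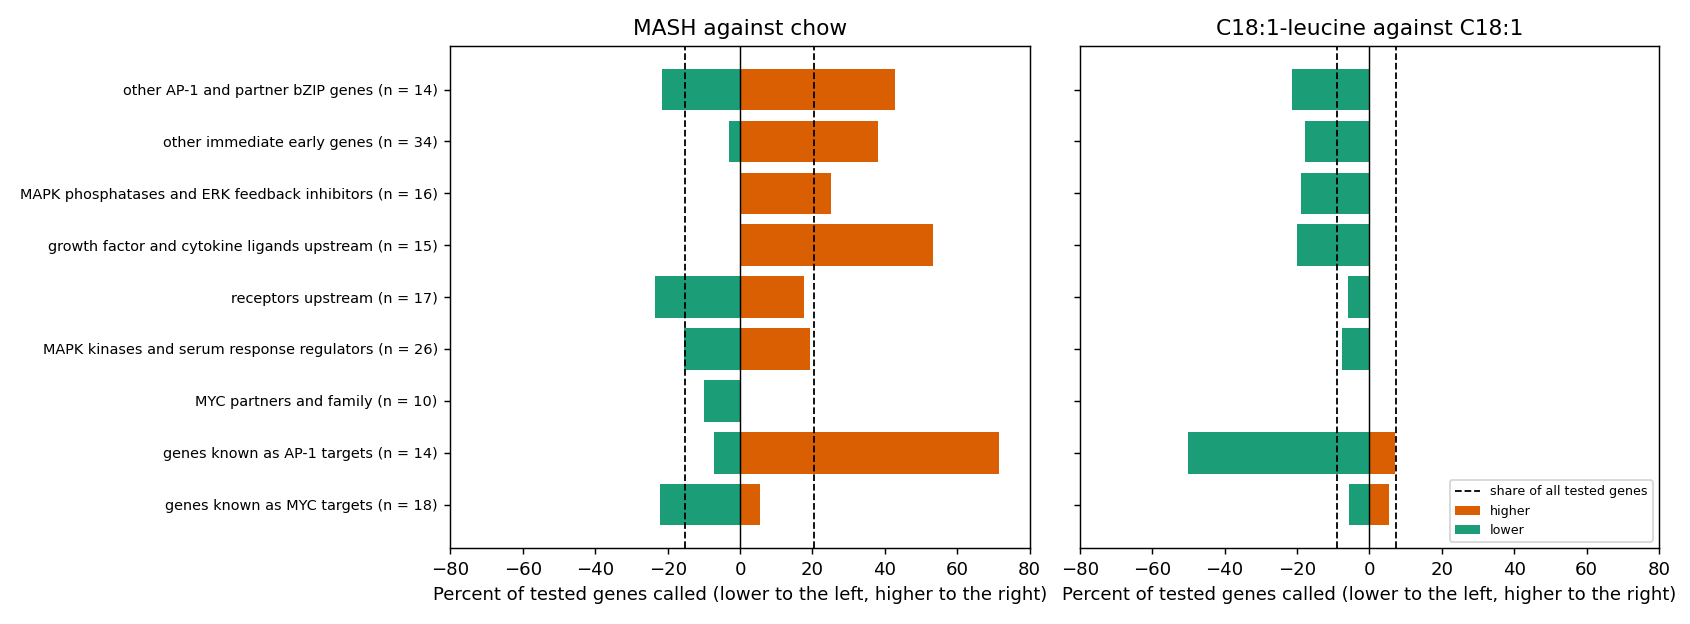
Percent of tested genes called lower (to the left) or higher (to the right) in each of the 9 pathway and target lists, in MASH against chow and in C18:1-leucine against C18:1; the dashed lines give the same share of all tested genes. Of these 9 lists, AP-1 targets reach farthest to the right in the first panel (10 of 14) and farthest to the left in the second (7 of 14). Cell type markers are not drawn, and some lists of them had like shares. In MASH against chow, 7 of 9 stellate cell and 7 of 10 macrophage markers were called higher and 0 lower. In C18:1-leucine against C18:1, 5 of 10 macrophage markers were called lower and 0 higher.

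Markers of other liver cells differed between the groups in which members were called. The counts below stand beside the shares of all tested genes. In MASH against chow 20.4% were called higher and 15.1% lower, and in C18:1-leucine against C18:1 7.34% higher and 8.89% lower. In C18:1 against chow 27.8% were called higher and 24.9% lower, and in C18:1-leucine against chow 10.2% higher and 4.34% lower. The sum of 10 macrophage and Kupffer cell markers was 264 to 423 CPM in chow, 660 to 855 in MASH, 603 to 1091 in C18:1 and 254 to 595 in C18:1-leucine, with none of the 10 at 0 in any library. In MASH 7 of the 10 rose and 0 fell, and from C18:1 to C18:1-leucine 5 fell and 0 rose. Those 5 became 2 without C18:1-leucine replicate 2, 3 without both libraries of disagreeing labels and 0 with groups from the tags. Of 9 stellate cell and myofibroblast markers, 7 rose in MASH (4 without MASH replicate 4), and their sum was 225 to 325 CPM in chow and 524 to 972 in MASH. The sum of 8 cholangiocyte markers was 34.04 to 49.5 CPM in chow and 59.5 to 434 in the groups on the diet. The single marker Spp1 made up most of the highest sum. Against chow, 1 of the 8 was called higher in MASH (0 to 5 over the alternatives). The count was 5 in C18:1 (3 to 7) and 0 in C18:1-leucine (0 to 1). Of the 10 hepatocyte markers 8 fell in MASH (4 without MASH replicate 4) and 10 fell in C18:1 against chow, and 3 rose from C18:1 to C18:1-leucine. Those 3 became 1 without C18:1 replicate 1 or 4 or C18:1-leucine replicate 1, and 0 without C18:1-leucine replicate 2, with groups from the tags or without both libraries of disagreeing labels. All 6 tested erythroid markers rose from C18:1 to C18:1-leucine, with sums of 159 to 412 and 355 to 676 CPM; this became 1 without C18:1 replicate 1, 3 or 4 or C18:1-leucine replicate 1 or 2, and 0 with groups from the tags or without both libraries of disagreeing labels. The part of these cells in the members' changes was not tested.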

How the data were processed

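Liver RNA of 14 libraries was analysed from the expected count per gene that the authors deposited; per the labels' protocols, RNA was isolated with an RNeasy kit and libraries were made with a NEBNext Ultra II kit. The submitters' processing notes name HTSeq, DESeq2 1.42.1 and the build GRCm38 without their roles; aligner and strand setting are not stated. Between 5.09% and 5.76% of a library's values were fractional, and values were rounded. Groups came from the titles. Replicates differed by a chi-square per gene of 25.0 to 168, well over counting error, so none was counted as a repeat. Symbols came from the count table itself. Coordinates and exon lengths came from GENCODE M21 on GRCm38, which held 45143 of the 45706 identifiers. Genes were filtered with filterByExpr (minimum count 10, minimum total 15, smallest group 3). One fit held the 14 libraries (edgeR 4.0.16, R 4.3.3, TMM, robust quasi-likelihood test, two-sided; tested on simulated data); log2 CPM used a prior count of 2. The authors' 6 comparison tables were not used, since no key to their group letters is given. Members, lists and tests were chosen with earlier results of these data known. All 10 members are named; of each other list, genes with the 4 smallest p of a comparison could be named, and for each member the 3 genes most like it with a mean of 1 CPM or more; of these genes the text names a part. Alternatives were RLE scaling, DESeq2 1.42.0, voom of limma 3.58.1 with sample weights, no low-count filter, a replicate block, the compared groups alone, groups from the treatment tags, omission of the 2 libraries whose labels disagree, and omission of each library.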

Additional observations from a re-analysis of the deposited data

Results flagged for a closer look

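Fos in C18:1 replicate 4, at 24.6 CPM, stood far above the other 3 libraries of its group, which held 12.6 to 13.98 CPM. On the log2 CPM scale the gap to the next library was 0.847 of the group's range, past Dixon's critical value of 0.829 for 4 libraries. It was the only such library in the 20 sets tested, which were the 10 members in chow and in C18:1, and chance flags about 1 in 20. The MASH and C18:1-leucine groups were too small for this rule. The same library was the highest of the 14 for 5 of the 10 members and held the highest summed macrophage markers, 1091 CPM. Fosb (log2 change -2.45) and Ier3 (log2 change -1.16) differed between C18:1-leucine and C18:1 on the same diet by edgeR's test of that difference, as the report gives with the libraries each call leaned on.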

How the results depend on the processing

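Of 1320 values of single members under 22 alternatives, 1277 kept their direction where called and their side of the threshold, 28 lost a call, 15 gained one and 0 reversed. Most of these values belong to members not called with the 14 libraries, which could not lose a call. A change of sign without a call counted as kept. Junb in C18:1-leucine against C18:1 changed sign in 7 of the 22. Counts of called members stayed within 1.5 times in MASH against chow (3 to 4 with each library left out in turn) and C18:1 against chow (4 to 5), and at 0 in C18:1 against MASH. In C18:1-leucine against MASH 1 member was called with DESeq2 and 1 with the compared groups only; in C18:1-leucine against C18:1, 0 with groups from the tags, 1 without both libraries of disagreeing labels, and 0 to 2 with each library left out; in C18:1-leucine against chow, 2 with DESeq2, 2 with limma voom, 0 with groups from the tags, and 0 to 2 with each library left out.

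Counts of all called genes were 3 with DESeq2 in C18:1 against MASH. In C18:1-leucine against MASH the 11 genes became 30 without the filter, 961 with DESeq2, 601 with limma voom, 51 with the compared groups only, 35 with the replicate block, 0 with groups from the tags, 0 without both libraries of disagreeing labels, and 0 to 61 with each library left out. In C18:1-leucine against C18:1 the 2544 became 4459 with limma voom, 1621 with the compared groups only, 0 with groups from the tags, 487 without both libraries, and 756 to 3043 with each library left out. In C18:1-leucine against chow the 2276 became 653 with groups from the tags and 976 to 2427 with each library left out. The cause was not tested.

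Replicate numbers showed no clear pairing of the libraries. Deviations of 18 same-numbered pairs correlated from -0.24 to 0.42, and 6 were over 0.1, while pairs with different numbers ran from -0.52 to 0.50. Whether same-numbered libraries share a day or litter was not tested. With the replicate block Fos was called in C18:1 against chow (log2 change 1.19, edgeR adjusted p = 0.0447), Ier3 was lost in C18:1-leucine against chow (0.82, edgeR adjusted p = 0.0816) and Myc gained there (0.76, edgeR adjusted p = 0.0492); 5249 genes were called in MASH against chow and 2306 in C18:1-leucine against C18:1. With 3 or 4 libraries a group, the intervals of Fos and Egr1 were wide, at -0.62 to 2.03 and -2.37 to -0.02 for the log2 change from chow to MASH. The median log2 change of all genes stayed within -0.02 and 0.02 under TMM and RLE scaling.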
